A study of Mus musculus with 8 samples.

Results

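Integrins of epithelial cells are the subject here. They are 9 subunit genes chosen by name, for their place in the receptors by which simple and stratified epithelia hold matrix. Earlier results of these data were known when they were chosen. The alpha subunit genes are Itga2, Itga3, Itga6 and Itgav, and the beta subunit genes are Itgb1, Itgb4, Itgb5, Itgb6 and Itgb8. All 9 of 9 are among the 24537 genes of the count table, and all 9 passed the filter on low counts. The libraries come from FVB/NJ mice that carry, among other alleles, Tp53f/f, Rosa26LSL-Luc (luciferase) and Pdx1-Cre, in both arms alike, and that form pancreatic tumours. The anti-LIF arm (mice KPCL-PCC_227_GA and KPCL-PCC_310_GA, then KPCL-PCC_354_GA and KPCL-PCC_391_GA) received gemcitabine, a nucleoside chemotherapy, with an antibody against leukaemia inhibitory factor (LIF). The IgG arm (mice KPCL-PCC_203_G and KPCL-PCC_343_G, then KPCL-PCC_345_G and KPCL-PCC_393_G) received gemcitabine with control IgG. Treatment of both arms began at 42 to 43 days of age, gemcitabine doses of 50 mg/kg fell on days 1 and 4, and antibody doses of 25 mg/kg on days 1, 3 and 5. Tumours were taken on day 6, at about 48 days of age, dissociated without culture, and EpCAM+ cells were sorted from each tumour for polyA RNA sequencing, with 1 library per mouse. There was no arm without gemcitabine. Pdx1-Cre acts in the pancreatic progenitors, so duct, acinar and islet lineages can all carry the recombined alleles.

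Integrins are cell surface receptors made of 1 alpha and 1 beta subunit, which link the extracellular matrix outside the cell to the actin or keratin cytoskeleton within it. Itgb1 is the shared beta subunit that pairs with Itga2 into a collagen receptor, and with Itga3 or Itga6 into laminin receptors. Itgb4 pairs with Itga6 in the hemidesmosome, the junction that fixes an epithelial cell to the laminin of its basement membrane. Itgav takes several beta partners. With Itgb5 it binds vitronectin, whereas with Itgb6 or Itgb8 it binds the latent form of the growth factor TGF-beta and releases its activity. In the pancreas, duct cells and carcinoma cells carry most of these receptors, and Itgb6 is low in resting epithelium and high in many carcinomas.

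The beta partners of Itgav gave the widest contrast among the members, so the 250 bases before the start of the counted transcript are shown for those 3 genes. They are taken from RefSeq on GRCm38.p6 and read 5′ to 3′ on the strand of the gene, and capitals mark each GC box (GGGCGG on either strand), a motif bound by SP family factors. The windows are chr16:33829415-33829664 on the plus strand for Itgb5, chr2:60722604-60722853 on the minus strand for Itgb6, and chr12:119238277-119238526 on the minus strand for Itgb8.
Itgb5: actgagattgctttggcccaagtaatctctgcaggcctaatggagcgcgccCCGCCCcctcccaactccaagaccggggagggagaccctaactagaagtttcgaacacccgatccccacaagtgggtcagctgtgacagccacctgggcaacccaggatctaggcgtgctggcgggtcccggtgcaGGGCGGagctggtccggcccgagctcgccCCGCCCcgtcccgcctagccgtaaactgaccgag
Itgb6: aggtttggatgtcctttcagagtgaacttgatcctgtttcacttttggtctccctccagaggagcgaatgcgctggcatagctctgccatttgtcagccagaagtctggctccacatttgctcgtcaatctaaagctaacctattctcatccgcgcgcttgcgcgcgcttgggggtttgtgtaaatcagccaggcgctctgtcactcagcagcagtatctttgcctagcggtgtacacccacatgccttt
Itgb8: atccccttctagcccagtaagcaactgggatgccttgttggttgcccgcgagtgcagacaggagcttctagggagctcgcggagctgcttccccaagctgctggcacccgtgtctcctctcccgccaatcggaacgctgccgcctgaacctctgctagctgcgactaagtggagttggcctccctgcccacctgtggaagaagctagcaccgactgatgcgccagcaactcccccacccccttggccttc
The Itgb5 window holds 3 GC boxes, at positions -199, -63 and -34 from the start site, and the windows of Itgb6 and Itgb8 hold none. In the promoter table, 7 of the 9 members matched by symbol, and for 6 of these 7 the window ends at the start of the counted transcript. Itga6 and Itgb4 had no entry. Itga3 and Itgb6 each have a second window, 7516 and 48910 bases from the counted start, and the window nearest to the counted start was used for each member. Of these 7 windows, 3 hold a GC box (Itga3, Itgb1 and Itgb5), against 32.7% of 32851 mouse promoter windows of the same length. A STAT site (TTCNNNGAA), the motif of the factors below the LIF receptor, occurs in 0 of the 7 and in 7.02% of all windows. An AP-1 site (TGANTCA) occurs in 0 of the 7 and in 6.75% of all windows, and a TEAD site (GGAATG) occurs in 1 of the 7 (Itgb1) and in 12.6% of all. Each motif was sought on both strands, and no motif overlaps another in the windows shown. These matches describe letters in the window only.

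Counts in genes ran from 15135457 to 18972281 per library. Beside the epithelial identity genes, the libraries held transcripts of markers of other cell types, among them acinar cells, which are also epithelial. Epithelial identity genes, a list with no integrin in it, took 0.249% to 0.474% of counts in anti-LIF libraries and 0.748% to 0.907% in IgG libraries, and 25 of 30 such genes were lower. Epcam, the marker of the sort, averaged 305 ± 74.8 CPM (read counts scaled to library size by the TMM method) in anti-LIF libraries and 575 ± 76.8 CPM in IgG libraries (SD, n = 4 each; edgeR quasi-likelihood test, adjusted p = 0.0102). Lif averaged 127 ± 7.08 CPM with anti-LIF and 81.4 ± 15.6 CPM with IgG (adjusted p = 0.00964), and its receptor gene Lifr 185 ± 55.9 CPM and 75.4 ± 16.2 CPM (adjusted p = 0.00663). Myeloid markers took 3.3% to 4.97% of counts in anti-LIF libraries and 1.75% to 2.25% in IgG libraries (15 of 22 higher), and acinar markers took 0.297% to 1.47% and 0.0421% to 0.212% (13 of 17 higher, with Amy2a5 at 0). Lymphoid markers took 0.00465% to 0.00731% in anti-LIF libraries and 0.00185% to 0.00381% in IgG libraries, with 3 of 9 tested markers higher and Ncr1 at 0. Endothelial markers took 0.011% to 0.0133% in anti-LIF libraries and 0.00615% to 0.00951% in IgG libraries, but of 12 such genes 2 were higher and 1 was lower, with a median log2 fold change of −0.18. The fibroblast ranges overlapped, at 0.0255% to 0.0981% and 0.026% to 0.0934%, and 2 of 12 such genes were higher. Erythroid markers were near 0, and 0 of them could be tested. By the same test, 16.5% of all genes tested were lower and 15.7% were higher (adjusted p under 0.05). The counts of higher fibroblast and endothelial genes are near that share. Fewer cells of a type and less RNA per cell cannot be told apart in such bulk libraries. The part of these mixtures in the integrin values was not tested, except through the scaling to epithelial genes given further on.

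With anti-LIF, 7 of the 9 integrin genes were lower than with IgG and 1, Itgb5, was higher. The 7 were Itga2, Itga3, Itga6, Itgb1, Itgb4, Itgb6 and Itgb8, lower by 1.36-fold to 2.43-fold with TMM scaling, although 0 of them were called lower when scaled to epithelial genes, and Itgav did not pass the test. Of the 14711 genes tested, 2428 were lower (16.5%) and 2303 were higher (15.7%) by the same rule, an adjusted p under 0.05 in edgeR's quasi-likelihood test with Benjamini-Hochberg adjustment over all genes. The median log2 fold change (anti-LIF minus IgG) was −0.69 over the members and −0.0063 over all genes tested. In 6 members every anti-LIF library lay below every IgG library, against 18.2% of all genes tested, and in 1 member every anti-LIF library lay above, against 17.6%. Since the members were chosen with earlier results of these data known, their counts beside those of all genes are a description only. The calls rest on 4 tumours per arm. Without IgG mouse KPCL-PCC_343_G or anti-LIF mouse KPCL-PCC_354_GA the number of members called lower was 3, without IgG mouse KPCL-PCC_393_G it was 4, without IgG mouse KPCL-PCC_203_G or KPCL-PCC_345_G it was 5, and without anti-LIF mouse KPCL-PCC_227_GA or KPCL-PCC_310_GA it was 6. Itga6, Itgb4, Itgb5 and Itgb6 passed with each of the 8 libraries left out in turn. Among all genes the split of calls differed between alternatives. It was 1430 higher and 3567 lower by library size alone, 1551 and 3402 by limma on log2(FPKM + 1), 1535 and 3344 by limma on log2(FPKM + 0.1), and 11161 and 185 with scaling to the epithelial list. The median log2 fold change of all genes there was −0.16, −0.10, −0.13 and 1.00.

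**Figure D1:**
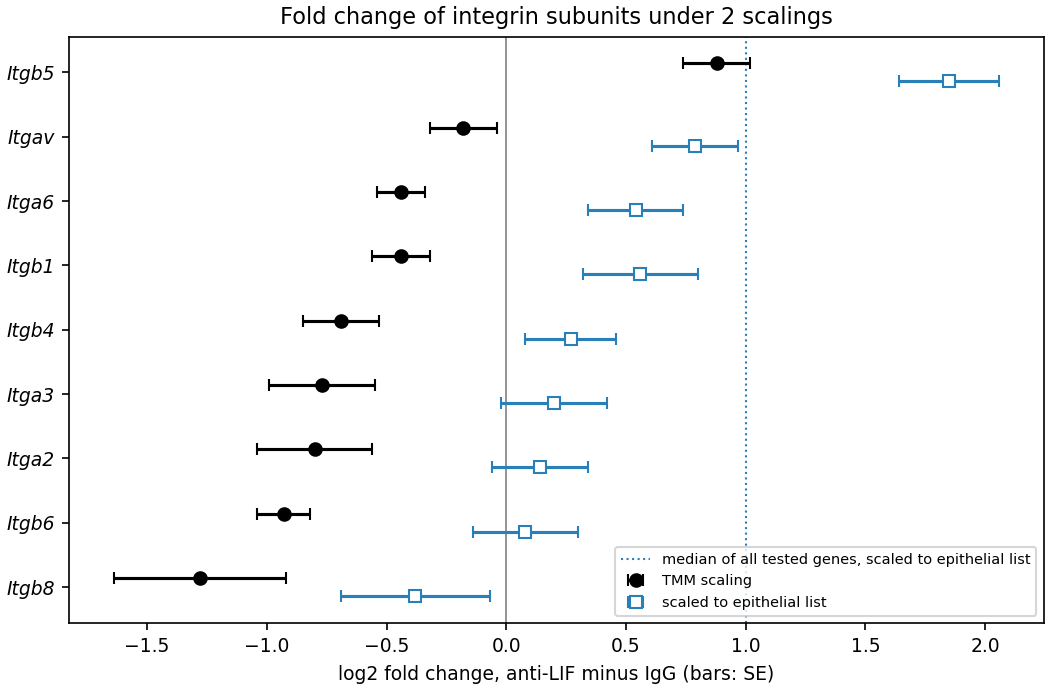
Log2 fold change (anti-LIF minus IgG, edgeR) of the 9 integrin genes with bars for its SE, for the libraries scaled by TMM (filled circles) and for the libraries scaled to the epithelial list (open squares), where the median of all genes is 1.00 (dotted line). With TMM scaling Itgb5 is the only member above 0 (0.88), while with epithelial scaling only Itgb8 is below 0 (−0.38, not past the threshold).

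The laminin-binding subunits were lower in anti-LIF tumours. Itga3 (chromosome 11, 95044475 to 95076714, minus strand, mm10), the laminin-binding alpha subunit of basal epithelial contacts, stood at 231, 380, 333 and 410 CPM in anti-LIF mice, against 730, 604, 399 and 577 CPM in IgG mice, listed here and in what follows in the order of mice above. The arms overlap, since anti-LIF mouse KPCL-PCC_391_GA lies above IgG mouse KPCL-PCC_345_G. The means were 339 ± 78.5 CPM with anti-LIF and 578 ± 137 CPM with IgG (SD, n = 4 each), 1.71-fold lower with anti-LIF (log2 fold change −0.77 ± 0.22 SE, edgeR adjusted p = 0.0287). The Itga3 call ended without IgG mouse KPCL-PCC_203_G, KPCL-PCC_343_G or KPCL-PCC_393_G or anti-LIF mouse KPCL-PCC_354_GA, with log2 fold changes between −0.91 and −0.62 over the 8 omissions. Itga3 stood at 0.20 with epithelial scaling and did not pass there. Here and in what follows, the median of all genes on that scale is 1.00. Itga6 (chromosome 2, 71786939 to 71858427, plus strand), which pairs with Itgb1 or Itgb4, stood at 174, 222, 167 and 209 CPM in anti-LIF mice, against 258, 266, 258 and 270 CPM in IgG mice. All 4 anti-LIF libraries lay below the IgG libraries, which were close to each other. Itga6 was 1.36-fold lower with anti-LIF (−0.44 ± 0.10, edgeR adjusted p = 0.0145), and turned to 0.54 with epithelial scaling.

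Itgb4 (chromosome 11, 115974725 to 116008411, plus strand), whose long cytoplasmic tail binds plectin and through it keratin, stood at 123, 191, 182 and 194 CPM in anti-LIF mice, against 318, 289, 234 and 275 CPM in IgG mice. The arms do not overlap, and anti-LIF mouse KPCL-PCC_227_GA lies apart from the other 3 of its arm. The means were 173 ± 33.6 CPM with anti-LIF and 279 ± 35.2 CPM with IgG, 1.62-fold lower with anti-LIF (−0.69 ± 0.16, edgeR adjusted p = 0.0131), or 0.27 on the log2 scale with epithelial scaling. The span of Itgb4 overlaps Galk1, a galactose kinase gene on the opposite strand with 3290 counts over the 8 libraries. Whether the counting used strand is not stated, so reads of the pair cannot be told apart where they overlap. No other member's span overlaps another gene of the count table.

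Itga2 (chromosome 13, 114835912 to 114932041, minus strand), the alpha subunit of an epithelial collagen receptor, stood at 58.2, 106, 52.3 and 107 CPM in anti-LIF mice, against 164, 142, 131 and 127 CPM in IgG mice. The anti-LIF libraries fall into a low pair (KPCL-PCC_227_GA and KPCL-PCC_354_GA) and a higher pair (KPCL-PCC_310_GA and KPCL-PCC_391_GA), and both pairs lie below the IgG libraries. The means were 80.9 ± 29.7 CPM with anti-LIF and 141 ± 16.7 CPM with IgG, 1.74-fold lower with anti-LIF (−0.80 ± 0.24, edgeR adjusted p = 0.0345), or 0.14 on the log2 scale with epithelial scaling. This was the least stable of the 8 calls, and it ended without IgG mouse KPCL-PCC_203_G, KPCL-PCC_343_G, KPCL-PCC_345_G or KPCL-PCC_393_G or anti-LIF mouse KPCL-PCC_227_GA or KPCL-PCC_354_GA, with adjusted p between 0.0256 and 0.0778 over the 8 omissions. Itgb1 (chromosome 8, 128685654 to 128733579, plus strand), the common partner of Itga2, Itga3 and Itga6, stood at 974, 1008, 937 and 1074 CPM in anti-LIF mice, against 1318, 1382, 1164 and 1549 CPM in IgG mice. The arms do not overlap, and the anti-LIF libraries are the tighter group. Itgb1 averaged 998 ± 58.3 CPM with anti-LIF and 1353 ± 159 CPM with IgG, 1.36-fold lower with anti-LIF (−0.44 ± 0.12, edgeR adjusted p = 0.0241), and it did not pass without IgG mouse KPCL-PCC_343_G or KPCL-PCC_393_G or anti-LIF mouse KPCL-PCC_310_GA or KPCL-PCC_354_GA. Itgb1 turned to 0.56 with epithelial scaling. It is made by most nucleated cells, so its reads can come from any of the cell types above.

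**Figure D2:**
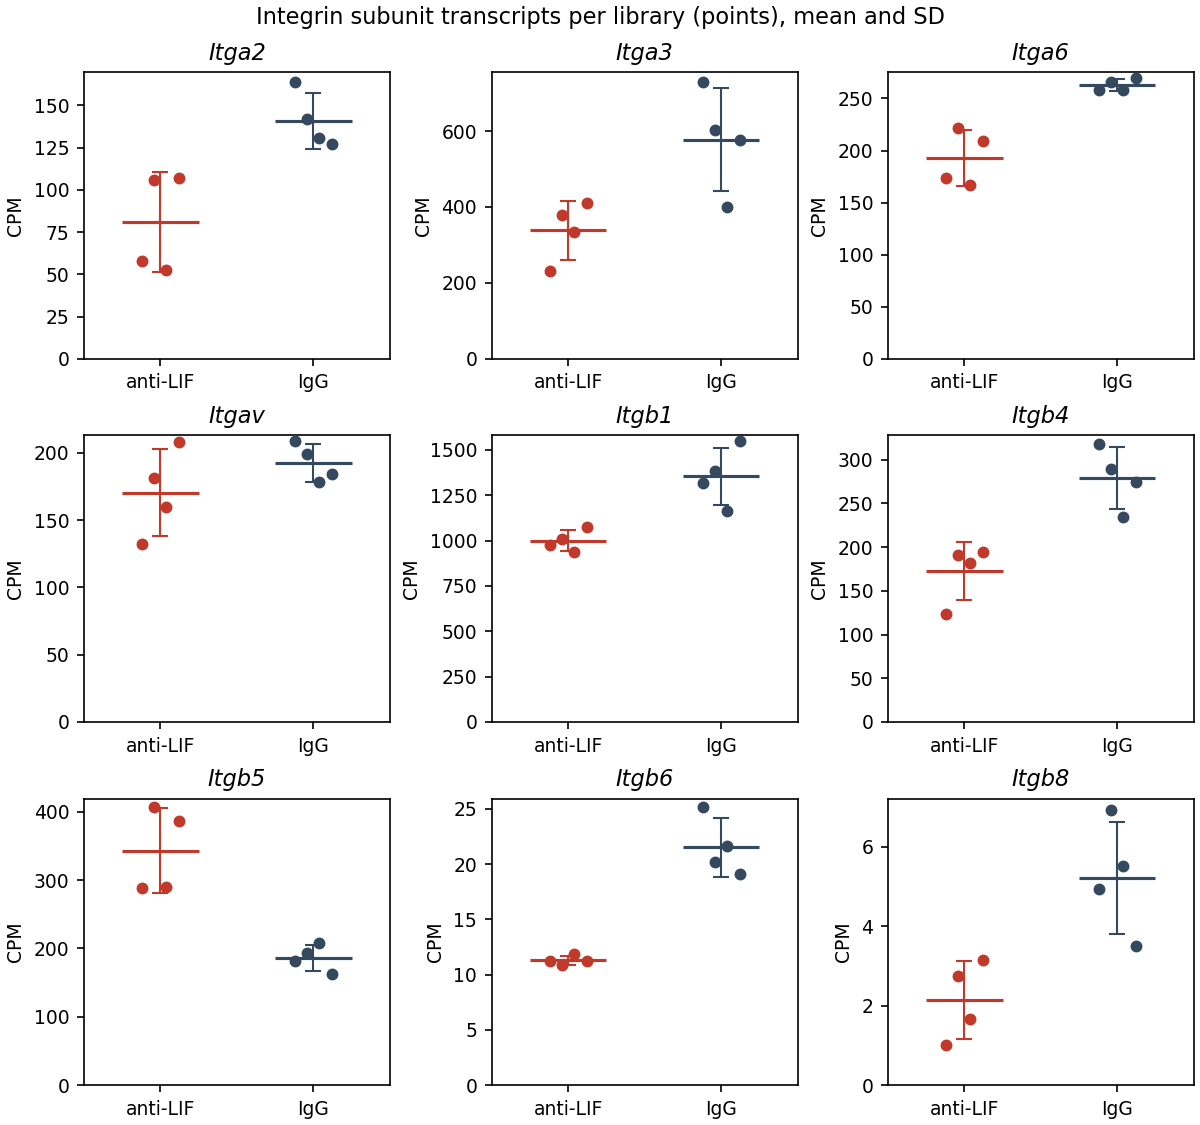
TMM-scaled CPM of the 9 integrin genes in each of the 8 libraries, 1 panel per gene with its own linear axis, anti-LIF left and IgG right, with the mean and SD of each arm. Anti-LIF libraries lie below IgG libraries in 6 panels and above them in the Itgb5 panel (289 to 407 against 163 to 208 CPM), and the arms overlap for Itga3 and Itgav.

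Itgav and its beta partners did not move alike. Itgav (chromosome 2, 83724397 to 83806917, plus strand) stood at 132, 181, 160 and 208 CPM in anti-LIF mice, against 209, 199, 178 and 184 CPM in IgG mice. The arms overlap, and the difference did not pass the test (170 ± 32.2 CPM with anti-LIF and 193 ± 13.9 CPM with IgG, −0.18 ± 0.14, edgeR adjusted p = 0.339), with the sign turning to 0.79 with epithelial scaling. Itgb5 (chromosome 16, 33829665 to 33949338, plus strand), the vitronectin-binding partner, stood at 289, 407, 290 and 386 CPM in anti-LIF mice, against 182, 193, 208 and 163 CPM in IgG mice. Every anti-LIF library lies above every IgG library. Itgb5 was 1.84-fold higher with anti-LIF (log2 fold change 0.88 ± 0.14, edgeR adjusted p = 0.00471), and it stayed between 0.80 and 0.96 with each library left out. Myeloid markers, of cells that can also carry Itgb5, are higher in the same libraries (3.3% to 4.97% of counts with anti-LIF and 1.75% to 2.25% with IgG). Within the anti-LIF arm the library with the highest myeloid share, mouse KPCL-PCC_227_GA at 4.97%, had the lowest Itgb5, and the one with the lowest myeloid share, mouse KPCL-PCC_310_GA at 3.3%, had the highest. Within the IgG arm the order was the other way, with the highest Itgb5 in mouse KPCL-PCC_345_G, whose myeloid share was the highest of its arm at 2.25%. Which cells gave the Itgb5 reads was not tested.

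The TGF-beta-releasing partners were lower and scarce. Itgb6 (chromosome 2, 60598292 to 60722603, minus strand) stood at 11.2, 10.9, 11.9 and 11.2 CPM in anti-LIF mice, against 25.2, 20.2, 21.6 and 19.1 CPM in IgG mice. The anti-LIF libraries were nearly level with each other, and all lay below the lowest IgG library. Itgb6 was 1.91-fold lower with anti-LIF (11.3 ± 0.414 CPM with anti-LIF and 21.5 ± 2.68 CPM with IgG, −0.93 ± 0.11, edgeR adjusted p = 0.00295), the lowest adjusted p of the members. With epithelial scaling Itgb6 stood at 0.08. Itgb8 (chromosome 12, 119162803 to 119238276, minus strand) had 16, 41, 27 and 47 counts in anti-LIF mice, against 86, 126, 109 and 65 counts in IgG mice. In CPM these were 1.02, 2.74, 1.67 and 3.16 with anti-LIF, against 4.93, 6.92, 5.52 and 3.51 with IgG, so the arms meet closely between anti-LIF mouse KPCL-PCC_391_GA and IgG mouse KPCL-PCC_393_G. Itgb8 was 2.43-fold lower with anti-LIF (−1.28 ± 0.36, edgeR adjusted p = 0.0263). The Itgb8 call ended without IgG mouse KPCL-PCC_343_G or KPCL-PCC_345_G or anti-LIF mouse KPCL-PCC_354_GA.

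Ratios of subunits within a library do not depend on the scaling between libraries. Per kilobase of counted transcript, the ratio of Itgb5 to Itgav was 4.36 ± 0.478 with anti-LIF and 2.09 ± 0.294 with IgG (SD, n = 4 each), with ranges of 3.9 to 4.83 and 1.88 to 2.51. The ratio of Itgb6 to Itgav was 0.0982 ± 0.02 with anti-LIF and 0.161 ± 0.0156 with IgG, and that of Itgb8 to Itgav was 0.0276 ± 0.00835 with anti-LIF and 0.0618 ± 0.0161 with IgG. In these 3 ratios the arms do not overlap. Their log2 differences (anti-LIF minus IgG) were 1.06, −0.73 and −1.18, each with an exact two-sided permutation p of 0.0286, the smallest that 4 tumours against 4 can give. Adjusted over the 7 ratios compared, each exact permutation p became 0.0667, which misses the threshold. In the other 4 ratios the arms overlap. Itgb4 to Itga6 stood at 0.876 ± 0.156 with anti-LIF and 1.04 ± 0.133 with IgG, Itga2 to Itgb1 at 0.0799 ± 0.0259 and 0.105 ± 0.0179, and Itga3 to Itgb1 at 0.292 ± 0.059 and 0.369 ± 0.0809 (exact permutation, adjusted p = 0.3 for each). Itga6 to Itgb1 stood at 0.135 ± 0.0138 with anti-LIF and 0.137 ± 0.0135 with IgG (log2 difference −0.02, exact permutation, adjusted p = 0.914).

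**Figure D3:**
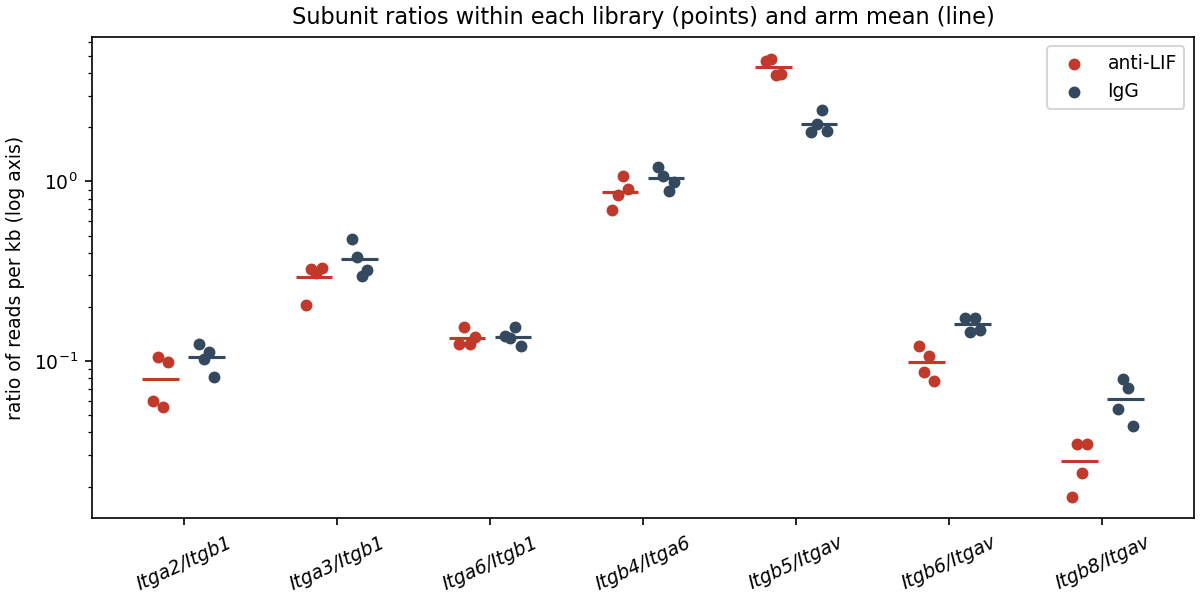
Ratios of subunit levels per kilobase of counted transcript in each library (log axis), anti-LIF left and IgG right within each pair of genes. The arms are apart for the 3 ratios to Itgav, with Itgb5 to Itgav at 3.9 to 4.83 in anti-LIF libraries and 1.88 to 2.51 in IgG libraries, and overlap in the other 4.

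Levels of different genes were compared as CPM per kilobase of the counted transcript. In anti-LIF tumours the order was Itgb1 (239 ± 14 CPM per kilobase), Itgb5 (105 ± 19.1), Itga3 (70.1 ± 16.2), Itga6 (32.3 ± 4.46), Itgb4 (28.2 ± 5.49), Itgav (24.3 ± 4.58), Itga2 (19.3 ± 7.09), Itgb6 (2.32 ± 0.0849) and Itgb8 (0.697 ± 0.317). The ranges of neighbours overlap from Itga6 down to Itga2, but within each of the 4 libraries Itgb4 lay above Itgav and Itgav above Itga2. Itga6 lay above Itgb4 in 3 of the 4, so the order of that pair is not resolved. In IgG tumours the order was Itgb1 (324 ± 38.1 CPM per kilobase), Itga3 (120 ± 28.3), Itgb5 (57.1 ± 5.84), Itgb4 (45.6 ± 5.76), Itga6 (43.9 ± 0.994), Itga2 (33.6 ± 3.98), Itgav (27.4 ± 1.98), Itgb6 (4.41 ± 0.551) and Itgb8 (1.7 ± 0.458). There the ranges of Itgb5 and Itgb4 overlap, although Itgb5 lay above Itgb4 in each of the 4 libraries. Itgb4 lay above Itga6 in 2 of the 4, and that pair is not resolved. Itgb5 thus stood above Itga3 with anti-LIF and below it with IgG. Of the summed level of the 5 beta subunits per kilobase, Itgb5 made up 27.8% ± 2.65 with anti-LIF and 13.3% ± 2.42 with IgG, with ranges of 25.7% to 31.1% and 10.6% to 16.5%. Itgb1 made up 63.9% ± 3.16 with anti-LIF and 74.7% ± 2.91 with IgG, and Itgb4 7.49% ± 1.19 and 10.5% ± 1.13. Itgb6 made up 0.622% ± 0.0741 with anti-LIF and 1.03% ± 0.175 with IgG, and Itgb8 0.181% ± 0.0687 and 0.396% ± 0.117. Of the 4 alpha subunits, Itga3 made up 47.9% ± 3.56 with anti-LIF and 52.7% ± 5.18 with IgG, while Itgav made up 16.7% ± 0.829 and 12.3% ± 1.13. These shares add to 100% in each library and so cannot move independently.

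**Figure D4:**
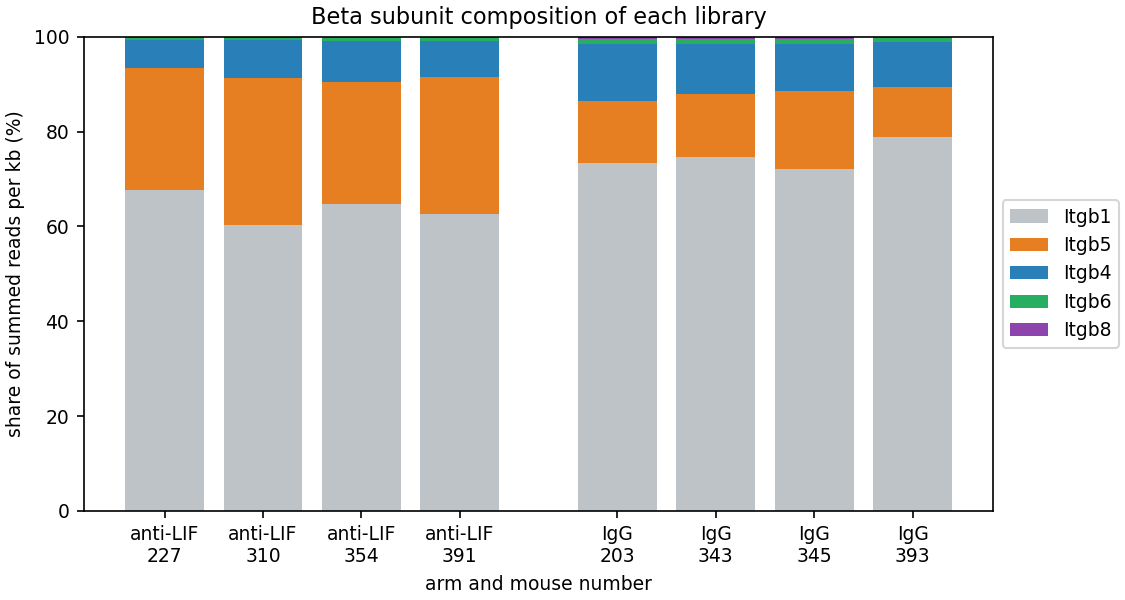
Share of each beta subunit gene in the summed level per kilobase of the 5 beta subunit genes, 1 stacked bar per library, anti-LIF libraries left and IgG libraries right. Itgb5 makes up 25.7% to 31.1% of each anti-LIF bar and 10.6% to 16.5% of each IgG bar, and Itgb1 makes up the largest share in all 8.

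Correlations among the members were taken over the 8 libraries. The 28 pairs that leave Itgb5 out had Pearson correlations of log2 CPM between 0.49 and 0.98 (median 0.83). These values carry the arm difference that most of the genes share. After removal of the arm means they ran from −0.52 to 0.95 (median 0.52), and 26 of 28 were positive. Itgb6 had the lowest of them, −0.52 with Itgb1 and −0.35 with Itga6, and its highest was 0.22, with Itga3 and with Itgb4. Itgb5 correlated with the other 8 members at −0.9 to −0.21, and 0 of the 8 were positive, values that carry the opposite arm difference of Itgb5. After removal of the arm means, 6 of those 8 were positive (median 0.51). All members measured in 1 library share its depth and cell mixture, which differ between libraries, and the correlations are given as a description. Anti-LIF mouse KPCL-PCC_391_GA was the highest of its arm for 6 members and mouse KPCL-PCC_227_GA the lowest for 5. These 2 libraries had the highest and the lowest epithelial share of that arm (0.474% and 0.249% of counts). IgG mouse KPCL-PCC_203_G was the highest of its arm for 5 members and mouse KPCL-PCC_345_G the lowest for 5, and these had the highest and the lowest epithelial share of the IgG arm (0.907% and 0.748%). Mice with middle shares were also the lowest, KPCL-PCC_393_G (0.82%) for 4 members and KPCL-PCC_354_GA (0.37%) for 3. The part of epithelial share in the member levels was not tested. The coefficient of variation of CPM ran from 3.67% (Itgb6) to 45.5% (Itgb8) within the anti-LIF arm and from 2.26% (Itga6) to 27% (Itgb8) within the IgG arm.

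With the libraries scaled to the summed counts of the epithelial list, 0 members were lower and 4 were higher with anti-LIF, against 1.26% and 75.9% of all genes tested. The 4 were Itgb5 (log2 fold change 1.85 ± 0.21, edgeR adjusted p = 0.000109), Itgav (0.79 ± 0.18, adjusted p = 0.00143), Itgb1 (0.56 ± 0.24, adjusted p = 0.0457) and Itga6 (0.54 ± 0.20, adjusted p = 0.0226). The median of all genes on this scale was 1.00, and Itgb5 alone of the members lay above it, by 0.85, while Itgav, Itgb1 and Itga6 lay below it by 0.21, 0.44 and 0.46. Itgb4 (0.27 ± 0.19), Itga3 (0.20 ± 0.22), Itga2 (0.14 ± 0.20), Itgb6 (0.08 ± 0.22) and Itgb8 (−0.38 ± 0.31) did not pass, with adjusted p between 0.192 and 0.748. Epcam stood at 0.04 on the same scale. A difference between these 5 genes and the epithelial list was therefore not detected, although intervals of this width do not exclude one. The SE is largest for Itgb8 (−0.38 ± 0.31), where a larger difference is not excluded.

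Of 18 other integrin genes, 16 were tested, and 3 were lower and 3 were higher with anti-LIF (median 0.26, against −0.0063 for all genes tested). Both counts are near the shares over all genes tested, 16.5% lower and 15.7% higher. The higher ones were Itga9, Itgam and Itgb2. Itga9, an alpha subunit that binds tenascin and osteopontin, averaged 75.1 ± 19.7 CPM with anti-LIF and 12.3 ± 2.87 CPM with IgG (6.12-fold higher, log2 fold change 2.61 ± 0.23, edgeR adjusted p = 0.00178). The other 2 were the leukocyte subunits Itgam (1449 ± 434 CPM with anti-LIF and 765 ± 281 CPM with IgG, adjusted p = 0.0403) and Itgb2 (807 ± 92.3 CPM and 571 ± 95.6 CPM, adjusted p = 0.0316). Both calls ended by library size alone and without anti-LIF mouse KPCL-PCC_227_GA or KPCL-PCC_310_GA or IgG mouse KPCL-PCC_203_G or KPCL-PCC_343_G. The Itgam call also ended without KPCL-PCC_391_GA or KPCL-PCC_345_G and the Itgb2 call without KPCL-PCC_393_G, and the count of higher genes was 1 without mouse KPCL-PCC_310_GA, KPCL-PCC_203_G or KPCL-PCC_343_G. Itgam is also in the list of myeloid markers above, so its reads are counted there too. The leukocyte subunit Itgax stood at 264 ± 145 CPM with anti-LIF and 190 ± 55.9 CPM with IgG (adjusted p = 0.45). Itgax passed as higher without anti-LIF mouse KPCL-PCC_227_GA, where the count of higher genes was 4. The lower ones were Itga5, the fibronectin receptor alpha subunit (148 ± 20.6 CPM with anti-LIF and 233 ± 42.1 CPM with IgG, −0.65 ± 0.15, adjusted p = 0.0126), Itgb3, a further partner of Itgav (34.9 ± 8.14 CPM and 67.5 ± 15.4 CPM, −0.95 ± 0.21, adjusted p = 0.0105), and the laminin-binding Itga7 (4.98 ± 1.58 CPM and 10.7 ± 1.71 CPM, −1.10 ± 0.24, adjusted p = 0.0109). With epithelial scaling (median of all genes 1.00) Itga5 turned to 0.32 and Itgb3 to 0.03, and the calls of all 3 ended.

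Among 27 genes for matrix ligands and for TGF-beta and its binding proteins, 26 were tested, and 11 were lower and 1 was higher (median −0.45). The shares over all genes tested were 16.5% lower and 15.7% higher. Most of the 11 were laminin chains, the ligands of Itga3 and Itga6. Other laminin chains did not pass, namely Lama1 (−0.12), Lama2 (−0.27), Lama4 (0.02) and Lamc3 (0.34). The Lamb2 call ended in 6 of the 8 omissions, and also with DESeq2 size factors, voom or no filter on low counts. Lama3 (151 ± 13.4 CPM with anti-LIF and 307 ± 148 CPM with IgG, edgeR adjusted p = 0.0261) and Lamb3 (151 ± 16.2 CPM and 353 ± 53.5 CPM, adjusted p = 0.00235), chains of epithelial laminin, were lower, the Lama3 call ending without anti-LIF mouse KPCL-PCC_310_GA or KPCL-PCC_354_GA or IgG mouse KPCL-PCC_343_G. Ltbp1, which tethers latent TGF-beta to matrix, averaged 61.4 ± 12.5 CPM with anti-LIF and 132 ± 12.4 CPM with IgG (adjusted p = 0.00317), and Tgfb2 averaged 6.78 ± 1.39 CPM and 10.6 ± 0.494 CPM (adjusted p = 0.0176). Tgfb1, whose latent form Itgb6 and Itgb8 receptors bind, was the 1 gene that was higher (239 ± 26.6 CPM with anti-LIF and 173 ± 14 CPM with IgG, 0.47 ± 0.10, adjusted p = 0.0109). The count of higher genes was 2 without anti-LIF mouse KPCL-PCC_391_GA or IgG mouse KPCL-PCC_345_G. The most abundant ligand, fibronectin (Fn1), stood at 18768 ± 3389 CPM with anti-LIF and 19313 ± 1769 CPM with IgG (adjusted p = 0.902), while osteopontin (Spp1) stood at 2591 ± 758 CPM and 2131 ± 318 CPM (adjusted p = 0.346) and tenascin C (Tnc) at 914 ± 413 CPM and 1715 ± 761 CPM (adjusted p = 0.109). With epithelial scaling (median of all genes 1.00) the calls of Lama3 (0.00), Lamb3 (−0.23), Ltbp1 (−0.12) and Tgfb2 (0.32) ended. Vitronectin (Vtn), the ligand of the Itgb5 receptor, was too scarce to test, with 52 counts over the anti-LIF arm and 12 over the IgG arm.

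All 30 adaptor and kinase genes at the cytoplasmic side of integrins were tested, and 8 were lower and 7 were higher (median 0.01). Over all genes tested 16.5% were lower and 15.7% were higher. Calls in opposite directions occurred within some adaptor families, which were picked after their values were seen, and not within others. The kindlin gene Fermt2, found in adherent cells, averaged 24.6 ± 4.25 CPM with anti-LIF and 47 ± 12 CPM with IgG (−0.93 ± 0.20, edgeR adjusted p = 0.0107), whereas the blood-cell kindlin gene Fermt3 averaged 357 ± 79.1 CPM and 213 ± 26.9 CPM (0.74 ± 0.16, adjusted p = 0.0104). The epithelial kindlin gene Fermt1 stood at 103 ± 12.5 CPM with anti-LIF and 127 ± 26.2 CPM with IgG (adjusted p = 0.136). Lims2, of the PINCH adaptors that bind integrin-linked kinase, had 48 counts over the anti-LIF arm and 574 over the IgG arm (0.786 ± 0.433 CPM and 7.74 ± 1.17 CPM, 9.82-fold lower with anti-LIF, adjusted p = 0.00295), and at −2.40 it was still lower with epithelial scaling. Its paralog Lims1 stood at 144 ± 20.9 CPM with anti-LIF and 136 ± 18.7 CPM with IgG (adjusted p = 0.646). Among the parvins, Parva was lower (−0.88 ± 0.23, adjusted p = 0.0226) and Parvb and Parvg were higher (0.37 ± 0.11 and 0.53 ± 0.15, adjusted p = 0.0351 and 0.0289). Each of the 3 parvin calls ended without IgG mouse KPCL-PCC_343_G or KPCL-PCC_393_G, those of Parva and Parvb also without KPCL-PCC_354_GA, those of Parvb and Parvg without KPCL-PCC_227_GA, that of Parvb without KPCL-PCC_345_G and that of Parvg without KPCL-PCC_310_GA. The Parvb and Parvg calls ended by library size alone and on log2 FPKM as well. With epithelial scaling (median of all genes 1.00) Fermt2 and Parva both turned to 0.05. Talin (Tln1), which activates integrins from within, averaged 982 ± 110 CPM with anti-LIF and 662 ± 47.5 CPM with IgG (0.57 ± 0.11, adjusted p = 0.0083), and the endocytic adaptor Dab2 averaged 1269 ± 282 CPM and 618 ± 99.9 CPM (1.04 ± 0.18, adjusted p = 0.00535). Actn4, an actin cross-linker, averaged 414 ± 63.2 CPM with anti-LIF and 579 ± 63.3 CPM with IgG (adjusted p = 0.0257), a call that ended without anti-LIF mouse KPCL-PCC_354_GA or IgG mouse KPCL-PCC_343_G or KPCL-PCC_393_G and stood at 0.49 with epithelial scaling. Actn1 stood at 472 ± 137 CPM and 703 ± 55.3 CPM (adjusted p = 0.0702). The count of higher adaptors was 4 without anti-LIF mouse KPCL-PCC_227_GA or IgG mouse KPCL-PCC_343_G. Myeloid markers are higher in the same libraries, and their part in Fermt3, Parvg, Tln1 and Dab2 was not tested.

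Of 15 hemidesmosome and tetraspanin partners, 14 were tested, and 4 were lower and 1 was higher (median −0.33). Beside this, 16.5% of all genes tested were lower and 15.7% were higher. Cd151, the tetraspanin bound to laminin-binding integrins, averaged 138 ± 7.94 CPM with anti-LIF and 208 ± 13.5 CPM with IgG (−0.59 ± 0.08, edgeR adjusted p = 0.00347). Plec, the plectin that joins Itgb4 to keratin, averaged 331 ± 47 CPM with anti-LIF and 513 ± 116 CPM with IgG (−0.63 ± 0.17, adjusted p = 0.0249). The urokinase receptor Plaur (239 ± 77.1 CPM with anti-LIF and 447 ± 84.5 CPM with IgG, adjusted p = 0.0198) and the hyaluronan receptor Cd44 (716 ± 95.4 CPM and 948 ± 55.6 CPM, adjusted p = 0.0327) were lower too. The tetraspanin Cd81, found on most cell types, was higher (369 ± 35.7 CPM with anti-LIF and 263 ± 12.7 CPM with IgG, 0.49 ± 0.09, adjusted p = 0.00741). Bsg, a further surface partner of integrins, stood at 399 ± 44 CPM with anti-LIF and 418 ± 88.3 CPM with IgG (adjusted p = 0.756). The Plec call ended without KPCL-PCC_227_GA, KPCL-PCC_354_GA, KPCL-PCC_203_G or KPCL-PCC_393_G, the Plaur call without KPCL-PCC_343_G or KPCL-PCC_393_G, and the Cd44 call without KPCL-PCC_310_GA, KPCL-PCC_354_GA or any 1 of the IgG mice. With epithelial scaling Cd151 stood at 0.40, Plec at 0.35, Plaur at 0.04 and Cd44 at 0.57, so that 0 of the 4 were lower. On that scale only 1.26% of all genes were called lower, and the 4 lay below the median of all genes, 1.00. Only 2 of the genes were lower without anti-LIF mouse KPCL-PCC_354_GA or IgG mouse KPCL-PCC_203_G or KPCL-PCC_343_G, and 1 without IgG mouse KPCL-PCC_393_G. Col17a1, the hemidesmosomal collagen, was too scarce to test, with 14 counts over the anti-LIF arm and 34 over the IgG arm.

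**Figure D5:**
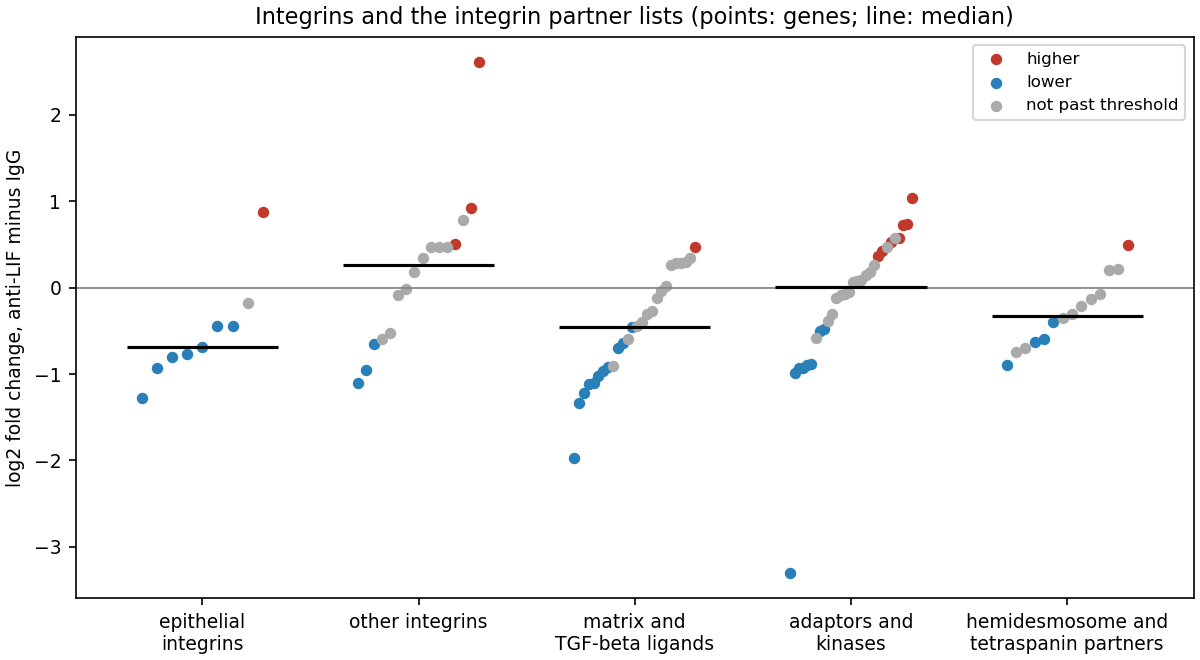
Log2 fold change (anti-LIF minus IgG, edgeR) of each tested gene in the members and the 4 lists of integrin partners, in red where higher, blue where lower and grey where not past the adjusted p threshold, with a line at each list's median. The medians are −0.69 for the members, 0.26 for the other integrins, −0.45 for the ligands, 0.01 for the adaptors and −0.33 for the hemidesmosome and tetraspanin partners.

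Among 10180 tested genes of at least 10 CPM, those with the pattern most like Itgb4 over the 8 libraries were Yes1 (Pearson r of log2 CPM 0.998), a Src family kinase, Arap2 (0.994), which acts on small GTPases of the actin cytoskeleton, and Fam83g (0.993). Those most like Itgb6 were Paqr5 (r = 0.988), a progestin receptor family gene, and Gdpd1 (0.987), a lipid phosphodiesterase gene. Yes1 averaged 14.5 ± 3.98 CPM with anti-LIF and 27.6 ± 4.69 CPM with IgG, and Paqr5 averaged 13.8 ± 0.678 CPM and 27.1 ± 4.21 CPM. With so many genes searched over 8 libraries, high correlations are found for many genes, and these are given as a description.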

How the data were processed

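PolyA RNA of sorted EpCAM+ tumour cells was sequenced from 8 mice, 4 in each arm. Per the submitters' processing notes, FastQC 0.11.2, STAR 2.4.0k, HOMER and edgeR 3.6.8 were used with mm10. The deposited count table holds whole-number exon counts from HOMER, condensed to 1 transcript per gene, per the file headers. The deposited FPKM table is scaled by transcript length and by the header totals (18954525 to 24681702). Recomputed from counts, 167977 of 168000 FPKM values matched within 0.002. The check covers the 21000 transcripts present in both tables, and Itga3, Itga6, Itgb4 and Itgb6 have another transcript in the FPKM table. The sources used here do not give the strand setting, annotation version or read filters.

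Counts were tested in R 4.3.3 with edgeR 4.0.16 (filterByExpr, TMM, quasi-likelihood test, Benjamini-Hochberg over 14711 genes, threshold 0.05). Ratios were compared by exact two-sided permutation of 70 assignments, adjusted over 7. Named genes were all members, the 4 most abundant tested genes of each partner list, genes in counts of 5 or fewer, Epcam, Lif and Lifr, and the 3 genes most like Itgb4 and Itgb6. Some items that the rule or the labels name are not reported here. The other genes named from longer counts, and the scarce Vtn and Col17a1, were chosen after their values were seen. The members and all lists were chosen with earlier results of these data known. Alternatives were other scalings, DESeq2 1.42.0, limma 3.58.1 (voom on counts, trend on log2 FPKM with 1 or 0.1 added), other filters on low counts, and each library left out.

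On simulated counts for 14554 genes in the anti-LIF against IgG design, edgeR recovered 8.96% of genes changed 1.5-fold, 64.2% changed 2-fold and 85.9% changed 4-fold, and 6 of 110 calls were false. Only 67, 67 and 64 genes were changed at these folds, whereas 32.2% of genes were called in the data. Recovery depends on the share of changed genes, so these rates do not carry over to the comparison above. Each library is a separate mouse. Itgb8 has the fewest counts of the members, so counting error weighs most there.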

Additional observations from a re-analysis of the deposited data

Results flagged for a closer look

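Itgb4 stood at 123 CPM in the anti-LIF library of mouse KPCL-PCC_227_GA, against 182 to 194 CPM in the other 3 anti-LIF libraries. The gap to the nearest library, divided by the range of the arm, was 0.842, above the 95% critical value of Dixon's test for 4 samples (0.829). This was the 1 such value among 32 arm and measure combinations checked, and chance alone passes the test in about 5% of them. Without mouse KPCL-PCC_227_GA, Itgb4 was still lower with anti-LIF (log2 fold change −0.56, edgeR adjusted p = 0.0101). The same library held the lowest share of epithelial counts, 0.249%, and the part of that share in the value was not tested.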

How the results depend on the processing

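Scaled to the epithelial list, where all genes move by a median of 1.00, the sign turned for Itga2 (0.14), Itga3 (0.20), Itga6 (0.54), Itgav (0.79), Itgb1 (0.56), Itgb4 (0.27) and Itgb6 (0.08). Of these, Itga6, Itgav and Itgb1 passed the threshold on that scale, and Itga2, Itga3, Itgb4 and Itgb6 did not. Lower and higher calls there were 0 and 4 of the members, 0 and 11 of the other integrins, 1 and 10 of the ligands, 1 and 23 of the adaptors, 0 and 9 of the hemidesmosome and tetraspanin partners, and 185 and 11161 of all genes. Under the other 8 alternatives to scaling, tool or filter every member kept its direction and its side of the threshold. Higher calls moved by over 1.5 times by library size alone (other integrins 1, adaptors 4, all genes 1430), on log2(FPKM + 1) (adaptors 4), on log2(FPKM + 0.1) (adaptors 4, all genes 1535) and with no filter on low counts (ligands 2). The cause was not tested. With each library left out in turn, lower and higher calls ran from 3 to 7 and 1 to 1 for the members, 3 to 3 and 1 to 4 for the other integrins, 8 to 12 and 1 to 2 for the ligands, 6 to 9 and 4 to 7 for the adaptors, 1 to 4 and 1 to 1 for the hemidesmosome and tetraspanin partners, and 1507 to 2136 and 1467 to 2218 for all genes. The log2 ratio of Itga6 to Itgb1 ran from −0.09 to 0.04, turning positive without anti-LIF mouse KPCL-PCC_227_GA (0.01) or KPCL-PCC_354_GA (0.02) or IgG mouse KPCL-PCC_345_G (0.04). The ratios to Itgav kept their direction in all 8 omissions, where the smallest exact permutation p is 0.0571. No paired analysis was possible because the arms share no mouse number. Itgb8 had the fewest counts of the members, 16 to 126 per library.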
